A study of Mus musculus with 12 samples.

Results

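The 9 genes described here make, interconvert, break down and carry the amino acids serine and glycine: Phgdh, Psat1, Psph, Shmt1, Shmt2, Gldc, Srr, Slc7a10 and Slc6a9. They were taken by symbol from a table of 52550 annotated features, each of the 9 symbols matched 1 row, and all 9 passed the filter on low counts. The table holds ribosome-bound RNA of cortical astrocytes, isolated by translating ribosome affinity purification (TRAP), in which a tagged ribosome is pulled down together with the RNA it carries. Knockout (KO) libraries came from Fmr1−/y Aldh1l1-TRAP mice and wild-type (WT) libraries from Fmr1+/y Aldh1l1-TRAP mice, all of the strain FVB/C57 and at postnatal day 40. Fmr1 encodes FMRP, an RNA-binding protein that regulates translation and is lost in fragile X syndrome. Both genotypes carry the TRAP transgene, which uses the astrocyte promoter of Aldh1l1, and an eGFP antibody was used on somatosensory cortex. There were 3 KO libraries, numbered 14, 16 and 18 in the labels, and 3 WT libraries, numbered 13, 15 and 17. Whether every library is a different mouse is not stated, and p-values then cover only how these 6 libraries vary, part of which may be technical.

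Serine is made in astrocytes from an intermediate of glycolysis by 3 enzymes acting in sequence, PHGDH, PSAT1 and PSPH. Serine hydroxymethyltransferases turn it into glycine and hand a one-carbon unit to folate, and the glycine cleavage system breaks glycine down. Serine racemase makes D-serine, which like glycine is a co-agonist of the NMDA receptor, and membrane carriers set how much of each amino acid stays outside the cell. Neurons make little serine of their own and depend on the supply from astrocytes.

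Total counts ran from 10953958 to 15760052 in KO libraries 16 and 14, with 21696862 in KO library 18, and from 19787520 to 22397202 in the WT libraries. Features taken here to collect ribosomal RNA reads were CT010467.1, Lars2 and AY036118, and whether their reads are ribosomal RNA was not tested. Their part of the counts is called the share of ribosomal RNA below. It was 35.6% and 45.1% in KO libraries 14 and 16, 0.892% in KO library 18, and 0.939% to 7.45% in the WT libraries. Levels are given as CPM (read counts relative to library size) scaled by TMM, which corrects for a few features that take up a large share of a library. Fmr1 itself measured 4.32, 4.22 and 1.32 CPM in KO libraries 14, 16 and 18, against 31.6, 38.4 and 37.0 CPM in WT libraries 13, 15 and 17, so that the labels and this gene go together. The 10 astrocyte markers summed to between 15228 and 20679 CPM in KO libraries and between 15848 and 20932 CPM in WT libraries. The 10 neuron markers summed to between 1680 and 2331 CPM in KO libraries and between 1215 and 2271 CPM in WT libraries. None of the markers of either list was at 0.

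None of the 9 genes differed between KO and WT libraries beyond the spread between libraries. By edgeR's quasi-likelihood test 0 of the 9 passed at an adjusted p of 0.05, and 0 had an unadjusted p under 0.05. Over all 14990 genes tested the test called 0, which is 0% of them, while 265 genes, or 1.77%, had an unadjusted p under 0.05. Fmr1 itself, with a log2 fold change of -3.53, was not called either (adjusted p = 0.2998, edgeR's quasi-likelihood test). The 0 calls therefore do not show that no gene differed. DESeq2 called 8 genes (0.0534%) and edgeR's exact test 9 genes (0.06%), with none of the 9 serine and glycine genes among them. Nor did the libraries of the 2 genotypes separate without overlap for any of the 9, which 6.2% of all genes tested did (2.95% with each KO library above each WT library and 3.25% below). Of the 9 genes 3 had a positive and 6 a negative log2 fold change, with a median of -0.02, beside a median of -0.0019 over all genes tested. The adjusted p was 1.00 for each of the 9, and their exact permutation p lay between 0.2 and 0.9, where 3 libraries against 3 cannot give a two-sided p below 0.1.

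**Figure D1:**
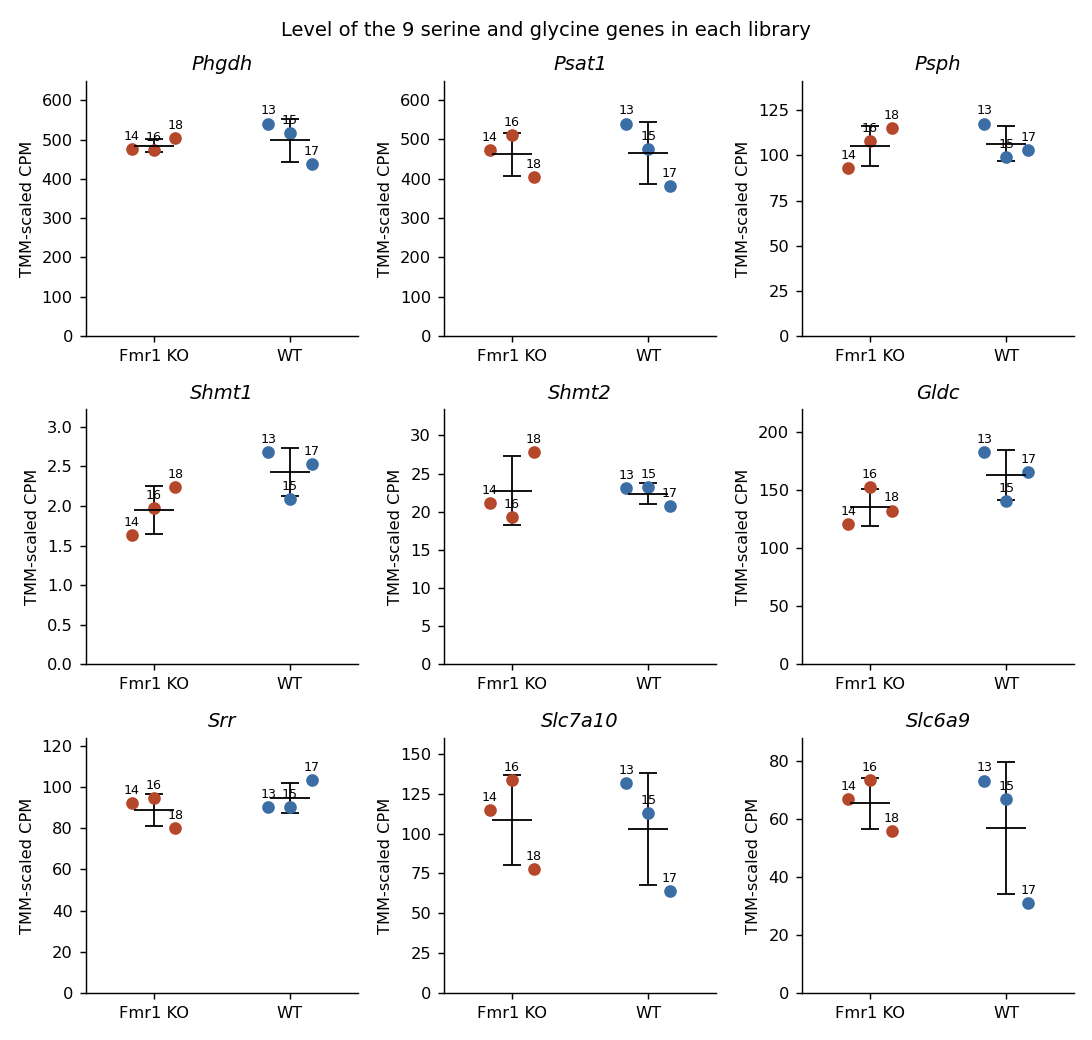
TMM-scaled CPM of each of the 9 genes in every library, with KO libraries in red and WT libraries in blue, labelled by library number; bars are the mean and SD of 3 libraries, and each axis starts at 0. The KO and WT points overlap in all 9 panels, and WT library 17 is the lowest point for Slc7a10 (63.8 CPM) and Slc6a9 (31.0 CPM).

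The genes that make serine showed no difference between genotypes larger than the spread between libraries. Phgdh, on chromosome 3 from 98313171 to 98339969 (RefSeq, GRCm38.p6), encodes the first enzyme, phosphoglycerate dehydrogenase. It measured 475, 475 and 505 CPM in KO libraries 14, 16 and 18, against 541, 516 and 437 CPM in WT libraries 13, 15 and 17. The KO values lay inside the range of the WT values. The means were 485 ± 17.2 CPM in KO and 498 ± 54.5 CPM in WT libraries (SD, n = 3 each), a log2 fold change of -0.04 (SE 0.14). The 95% interval reached from -0.35 to 0.28, so that KO levels between 0.782 and 1.21 times those of WT were not excluded.

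Psat1, on chromosome 19 from 15905123 to 15925059, encodes the phosphoserine aminotransferase of the second step. Its level was 473, 511 and 403 CPM in KO libraries 14, 16 and 18, against 540, 475 and 382 CPM in WT libraries 13, 15 and 17. Each genotype thus had 1 library well below its other 2, KO library 18 and WT library 17, and the log2 fold change was -0.01 (95% interval -0.40 to 0.38). Psph, on chromosome 5 from 129765558 to 129787443, encodes phosphoserine phosphatase, the last step. It stood at 93.1, 108 and 115 CPM in KO libraries 14, 16 and 18, against 118, 99.1 and 103 CPM in WT libraries 13, 15 and 17. The library order differed from that of Psat1: KO library 18 was the highest of its genotype for Psph and the lowest for Psat1. The log2 fold change of Psph was -0.02 (95% interval -0.35 to 0.31).

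The genes of serine and glycine conversion were the lowest counted members. Shmt1, on chromosome 11 from 60788897 to 60811265, encodes the cytosolic serine hydroxymethyltransferase, and Shmt2, on chromosome 10 from 127517123 to 127522444, the mitochondrial one. Shmt1 had 20, 14 and 58 counts in KO libraries 14, 16 and 18, against 63, 53 and 66 counts in WT libraries 13, 15 and 17. That gave 1.63, 1.97 and 2.24 CPM in the KO libraries, against 2.68, 2.09 and 2.53 CPM in the WT libraries in the same order. The counting error of Shmt1 alone was as large as 26.7% in 1 library, and only counting error is meant by that figure. The means of 1.95 ± 0.307 and 2.43 ± 0.305 CPM (KO and WT, SD, n = 3 each) left a log2 fold change of -0.31 with an interval from -1.05 to 0.42, the widest of the 9. KO levels of Shmt1 between 0.484 and 1.34 times those of WT were not excluded at this depth.

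Shmt2 measured 21.1, 19.3 and 27.8 CPM in KO libraries 14, 16 and 18, against 23.0, 23.2 and 20.8 CPM in WT libraries 13, 15 and 17. KO library 18 was above all other libraries, while KO library 16 was below them. The log2 fold change of Shmt2 was 0.03 (95% interval -0.37 to 0.43). Without KO library 18 it was -0.14, and without the other 2 KO libraries it was 0.34 (unadjusted p = 0.13 in edgeR's quasi-likelihood test).

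Gldc, on chromosome 19 from 30098441 to 30175441, encodes glycine decarboxylase, the enzyme that starts glycine breakdown and is found in astrocytes of the brain. Its level was 120, 152 and 132 CPM in KO libraries 14, 16 and 18, against 183, 140 and 166 CPM in WT libraries 13, 15 and 17. The groups overlapped through KO library 16, which was above WT library 15. Means were 135 ± 16.1 CPM in KO and 163 ± 21.3 CPM in WT libraries (SD, n = 3 each), with KO over WT at -0.27 on the log2 scale (SE 0.16, 95% interval -0.63 to 0.09). By edgeR's quasi-likelihood test Gldc had an unadjusted p of 0.122, the smallest of the 9, and an adjusted p of 1.00. In the authors' deposited table the p of Gldc is 0.0501 and its adjusted p 0.722. That table lists each library as 2 entries, which here are summed and counted as 1 sample.

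Srr, on chromosome 11 from 74904027 to 74927533, encodes serine racemase, which is reported in neurons as well as astrocytes. It measured 92.2, 94.5 and 79.9 CPM in KO libraries 14, 16 and 18, against 90.3, 90.5 and 103 CPM in WT libraries 13, 15 and 17. Among the 6 libraries KO library 18 was lowest and WT library 17 highest, and both were the libraries with the highest neuron marker medians. The log2 fold change was -0.09 (95% interval -0.41 to 0.22). The annotated span of Srr overlaps those of Tsr1, Smg6 and Snord91a, and its counts were not whole numbers in any of the 12 deposited entries, so some of its reads were shared with other features. Counts of Phgdh, Psph, Slc7a10 and Slc6a9 were also fractional in all 12 entries, whereas those of Psat1, Shmt1, Shmt2 and Gldc were whole in all 12. Phgdh-ps1, a listed pseudogene of Phgdh, had 0 counts in every library.

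The carriers had the largest spread between libraries of the 9 genes. Slc7a10, on chromosome 7 from 35186095 to 35201116, encodes the carrier Asc-1, which exchanges small neutral amino acids including D-serine and glycine. It stood at 115, 133 and 77.9 CPM in KO libraries 14, 16 and 18, against 132, 113 and 63.8 CPM in WT libraries 13, 15 and 17. The highest library was 2.09 times the lowest, and 1 library of each genotype, KO 18 and WT 17, was low. The means were 109 ± 28.2 CPM in KO and 103 ± 35.2 CPM in WT libraries (SD, n = 3 each). A log2 fold change of 0.08 (95% interval -0.59 to 0.74) turned to -0.18 without WT library 17 and to -0.10 without KO library 16.

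Slc6a9, on chromosome 4 from 117835258 to 117869305, encodes GlyT1, the glycine transporter of glia that clears glycine from the surroundings of synapses. It measured 66.9, 73.2 and 55.8 CPM in KO libraries 14, 16 and 18, against 73.2, 66.8 and 31.0 CPM in WT libraries 13, 15 and 17. WT library 17 lay far below the other 5 libraries, and without it the log2 fold change of Slc6a9 was -0.10 in place of 0.19 (95% interval -0.48 to 0.87 with all 6 libraries). The SD of log2 CPM over the 6 libraries was 0.43 for Slc7a10 and 0.47 for Slc6a9. It lay between 0.11 and 0.25 for the other 7 genes, and its median was 0.20 over the 9349 genes tested with a mean of at least 10 CPM.

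**Figure D2:**
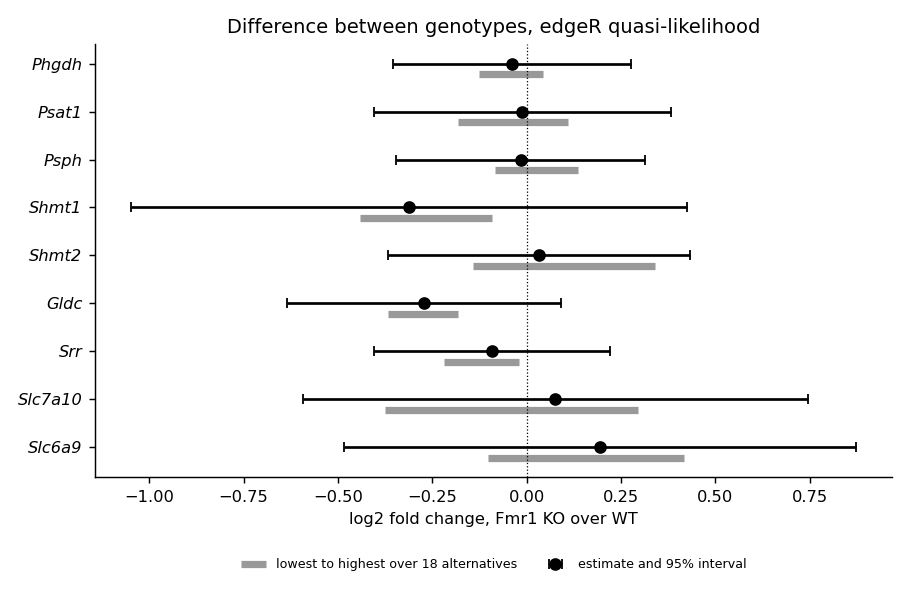
Log2 fold change of KO over WT libraries for each gene: black points and lines are the estimate and its 95% interval from edgeR's quasi-likelihood test, and grey bars run from the lowest to the highest estimate over 18 alternative analyses. Every interval spans 0, the grey bars of Shmt1, Gldc and Srr stay below 0, and that of Slc7a10 runs from -0.38 to 0.30.

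The promoters of Psat1 and Slc6a9 are shown because both genes varied with Slc7a10 between libraries. Each sequence is the 250 bases before a listed start, in the direction of the gene, from RefSeq (GRCm38.p6), with CG pairs in capitals. That of the first of 2 listed starts of Psat1 lies on the minus strand at chr19:15925060-15925309 and holds 16 CG pairs. The one at the first of 3 listed starts of Slc6a9 lies on the plus strand at chr4:117835008-117835257 and holds 9. In the same 250 bases of 32851 listed promoter windows the median was 6, with quartiles of 2 and 16. The windows of the 9 genes that are not shown held from 7 CG pairs (Phgdh and Shmt2) to 26 (Srr). The listed start of Slc7a10 lies inside its annotated span, and its window is not shown.
Psat1: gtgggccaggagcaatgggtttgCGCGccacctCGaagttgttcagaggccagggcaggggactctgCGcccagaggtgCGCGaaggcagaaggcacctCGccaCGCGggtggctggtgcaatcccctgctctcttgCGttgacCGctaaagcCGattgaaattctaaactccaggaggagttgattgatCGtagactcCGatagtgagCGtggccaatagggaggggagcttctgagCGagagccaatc
Slc6a9: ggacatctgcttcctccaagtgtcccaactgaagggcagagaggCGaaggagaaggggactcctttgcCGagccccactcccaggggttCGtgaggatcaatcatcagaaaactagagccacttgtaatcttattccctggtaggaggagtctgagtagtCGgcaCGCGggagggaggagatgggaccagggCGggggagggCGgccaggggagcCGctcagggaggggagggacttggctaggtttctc
All 9 genes had a promoter window in that table, 12 windows in all. The motif TGATGNAAN, the response element bound by ATF4 together with C/EBP factors, was searched on both strands of windows of 300 bases and was found in 0 of the 12. It was found in 3.95% of all listed windows, and its absence says only that these letters are not in these windows.

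Over the 6 libraries Psat1, Slc7a10 and Slc6a9 varied together. KO library 18 and WT library 17 lay below the other 4 libraries in all 3 genes, apart from them in Psat1 and Slc7a10, while in Slc6a9 KO library 18 lay nearer to those 4 than to WT library 17. The other enzymes of serine synthesis had lower r with these 3 genes, from 0.57 to 0.72 for Phgdh and from 0.02 to 0.14 for Psph; differences between such r were not tested. Without KO library 18 and WT library 17, r of Psat1 with Psph was 0.97 over the 4 that remain. Slc7a10 and Slc6a9 ranked the libraries in the same order, with Pearson's r = 0.92 (exact permutation p = 0.0014, the smallest possible, adjusted p = 0.05) and Spearman's rho = 1.00 (exact permutation p = 0.0028, adjusted p = 0.1). For Psat1 and Slc7a10, r was 0.98 (exact permutation p = 0.0056, adjusted p = 0.0667) and rho 0.89 (exact permutation p = 0.0333, adjusted p = 0.3). For Psat1 and Slc6a9, r was 0.87 with the same p and adjusted p as the pair before it, and rho was again 0.89 (exact permutation p = 0.0333). Without the 2 libraries farthest from the median of the first gene, which were KO library 18 and WT library 17 for each of these pairs, r was 0.997, 0.91 and 0.93 in that order. These relations over 6 libraries thus include the distance of those 2 libraries from the rest, and within the 4 remaining libraries r carries no test. Adjustment ran over all 36 pairs of members, and 0 fell below an adjusted p of 0.05. A lone pair at the smallest possible p cannot fall below that threshold, so the 0 decides little. Of the 36 pairs 4 had an unadjusted p under 0.05. The fourth was Shmt1 with Gldc (r = 0.85, exact permutation p = 0.0347; rho = 0.77, exact permutation p = 0.103), whose r was 0.42 without WT library 13 and KO library 14, the 2 farthest for Shmt1. Phgdh and Psat1, successive enzymes of one pathway, had r = 0.61 (exact permutation p = 0.206, adjusted p = 0.79) and rho = 0.60 (exact permutation p = 0.242), and r was -0.51 without WT libraries 13 and 17, the 2 farthest for Phgdh. The most negative pair was Shmt2 with Srr (r = -0.85, exact permutation p = 0.0597, adjusted p = 0.43; rho = -0.89, exact permutation p = 0.0333, adjusted p = 0.3; r = -0.77 without KO libraries 16 and 18). The genes of a pair come from the same libraries and share their depth and scaling.

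**Figure D3:**
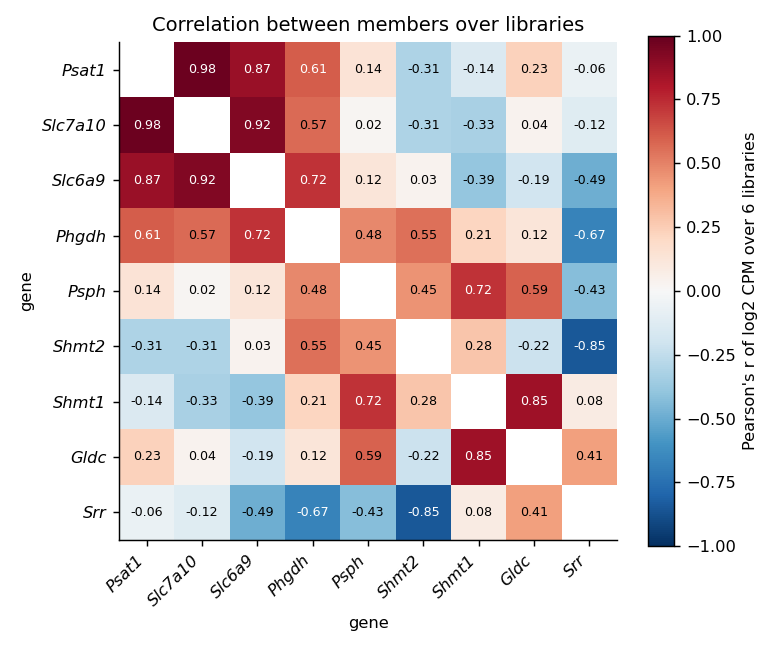
Pearson's r of log2 CPM over the 6 libraries for the 36 pairs of members, from blue (-1) to red (1). Psat1, Slc7a10 and Slc6a9 form the block at the upper left with r from 0.87 to 0.98, and Srr with Shmt2 is the most negative pair at -0.85.

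KO library 18 and WT library 17 were also low in most astrocyte markers. Of the 10 markers 8 were lowest of their genotype in both libraries. Aldoc was not, at 6732, 7035 and 7106 CPM in KO libraries 14, 16 and 18, against 7684, 6590 and 6823 CPM in WT libraries 13, 15 and 17. Gfap was lowest in KO library 18 (2201 CPM) among KO libraries but in WT library 15 (1886 CPM) among WT libraries. Relative to the WT mean, the median log2 CPM of the 10 astrocyte markers was 0.11, 0.34 and -0.55 in KO libraries 14, 16 and 18, against 0.26, 0.16 and -0.44 in WT libraries 13, 15 and 17. On that scale Slc7a10 was at 0.22, 0.44 and -0.34 in the KO libraries, against 0.42, 0.20 and -0.62 in the WT libraries in the same order. KO library 18 and WT library 17 were low for both. The neuron marker median went the other way, at 0.0051, -0.24 and 0.52 in KO libraries 14, 16 and 18, against -0.58, 0.20 and 0.41 in WT libraries 13, 15 and 17. Marker medians of oligodendrocytes and of their precursors were also highest of their genotype in KO library 18 (0.81 and 0.41) and WT library 17 (0.48 and 0.38). Those of microglia (-0.27 in KO library 18, -0.097 in WT library 17) and of endothelial and mural cells (0.18 and -0.0081) were not highest in both. With the astrocyte marker median, r was 0.95 for Slc7a10 (exact permutation p = 0.0167, adjusted p = 0.1), 0.94 for Psat1 (exact permutation p = 0.0125, adjusted p = 0.1) and 0.76 for Slc6a9 (exact permutation p = 0.0375, adjusted p = 0.14). Spearman's rho was 0.89 for each of the 3 (exact permutation p = 0.0333, adjusted p = 0.1), and r without the 2 farthest libraries, again KO library 18 and WT library 17, was 0.93, 0.76 and 0.93. With the neuron marker median r was -0.84 for Slc7a10 and -0.92 for Psat1 (exact permutation p = 0.0389 and 0.0111, adjusted p = 0.14 and 0.1; rho = -0.89 for both, exact permutation p = 0.0333, and r = -0.88 and -0.89 without KO library 18 and WT library 13, the 2 farthest by neuron markers). For Slc6a9 it was -0.65 (exact permutation p = 0.147, adjusted p = 0.442; rho = -0.89, exact permutation p = 0.0333; r = -0.82 without the same 2 libraries). Adjustment ran over 18 relations of the 9 genes with the 2 marker lists, chosen after the data were seen, and 0 of them passed. The astrocyte and neuron marker medians were themselves related (r = -0.85, exact permutation p = 0.0431; rho = -0.89, exact permutation p = 0.0333). Without KO library 18 and WT library 17 that r was -0.64. The relations of a gene with the 2 medians are therefore not separate observations. In these pull-downs fewer cells of a type, less RNA per cell and RNA carried along from other cells cannot be told apart. The part of any of them in the levels of these genes was not tested.

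**Figure D4:**
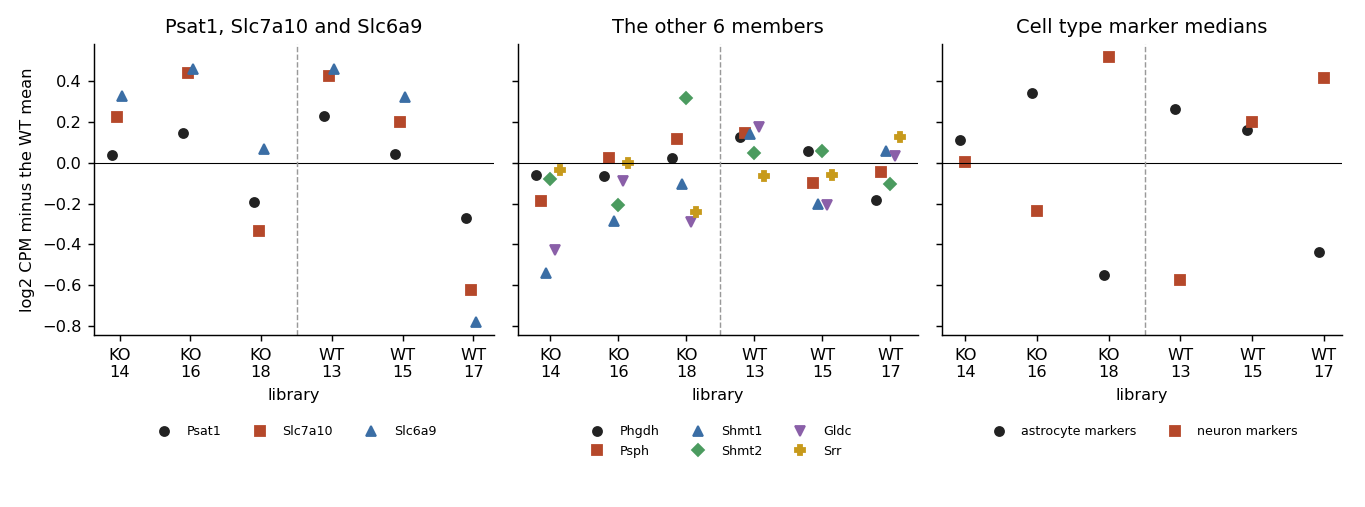
Log2 CPM minus the WT mean in each library, KO libraries left of the dashed line and WT libraries right of it, for Psat1, Slc7a10 and Slc6a9, for the other 6 members and for the marker medians of astrocytes and neurons. Slc7a10 and the astrocyte markers are below 0 in KO library 18 and WT library 17, where the neuron markers are at 0.52 and 0.41.

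Phgdh was at -0.06, -0.06 and 0.03 in KO libraries 14, 16 and 18 relative to the WT mean, against 0.13, 0.06 and -0.18 in WT libraries 13, 15 and 17. Its r with the astrocyte marker median was 0.38 (exact permutation p = 0.447, adjusted p = 0.732; rho = 0.20, exact permutation p = 0.714) and 0.04 without the 2 farthest libraries. Aldh1l1, whose promoter drives the tag and whose product is itself a folate enzyme, also varied little. It measured 398, 380 and 453 CPM in KO libraries 14, 16 and 18, against 434, 439 and 415 CPM in WT libraries 13, 15 and 17. With the astrocyte marker median as a covariate, the log2 fold changes of Slc7a10 and Slc6a9 were 0.14 and 0.30 (unadjusted p = 0.307 and 0.147, adjusted p = 1.00 for both, edgeR's quasi-likelihood test).

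Library names carry a pair of numbers whose first is 5 in KO libraries 14 and 16 and WT library 13, and 6 in the other 3, and what it stands for is not stated. Among libraries with a 5, KO minus WT on the log2 scale was -0.43 for Gldc, -0.09 for Slc7a10, -0.06 for Slc6a9, -0.19 for Phgdh and 0.05 for Srr. Among those with a 6 the same difference was -0.21 for Gldc, -0.12 for Slc7a10, 0.29 for Slc6a9, 0.09 for Phgdh and -0.27 for Srr. Psat1 (-0.14 and -0.08) and Shmt1 (-0.56 and -0.03) were, like Gldc and Slc7a10, negative in both sets, while Psph (-0.23 and 0.19) and Shmt2 (-0.19 and 0.34) changed sign, as did Phgdh, Srr and Slc6a9. For Slc7a10 the sign within both sets is the reverse of its estimate over all 6 libraries (0.08). Each set has only 1 library of one genotype, and the sets were tested together with this number as a covariate in edgeR's quasi-likelihood test. That fit gave log2 fold changes of -0.32 for Gldc (unadjusted p = 0.0653, adjusted p = 0.971), -0.14 for Slc7a10 (unadjusted p = 0.545), -0.12 for Srr (unadjusted p = 0.426) and 0.06 for Slc6a9 (unadjusted p = 0.81), and 0 of the 9 genes had an unadjusted p under 0.05.

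Genes with the most similar pattern across the 6 libraries were found by the root mean square difference of centred log2 CPM over all 14990 genes tested. Centring removes the level of each gene, so matched genes can differ in level. Those nearest to Slc7a10 were Bcan (0.05), which encodes the matrix proteoglycan brevican, and Abca1 (0.06), a lipid exporter. Bcan measured 647, 805 and 425 CPM in KO libraries 14, 16 and 18, against 717, 660 and 362 CPM in WT libraries 13, 15 and 17, the same low libraries as Slc7a10. Nearest to Slc6a9 was Dhcr7 (0.07), of cholesterol synthesis, followed by F630040K05Rik (0.09), and nearest to Psat1 were Acsl6 (0.02), an acyl-CoA synthetase, and Rassf2 (0.04). For Phgdh they were Snx17 (0.02) and Aamp (0.03), for Psph Rpl27 (0.01) and Snrpg (0.03), and for Shmt2 Safb2 (0.04) and Mob2 (0.04). For Shmt1 they were Nudt8 (0.06) and Cdc45 (0.07), for Gldc Apobec3 (0.04) and Immp1l (0.05), and for Srr Ing3 (0.03) and Klhl9 (0.04). These genes were picked by their pattern out of 14990 over only 6 libraries, so the likeness is no support for a link. How close the nearest matches of other genes lie was not computed.

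Around the 9 genes, 5 lists of neighbouring genes held no gene that passed in either direction, with 0 of 14990 (0%) called over all genes. The glycine cleavage and folate genes had 6 higher and 13 lower of 19 tested, with a median log2 fold change of -0.06. On the lower side Mthfd2l, a mitochondrial folate enzyme, had the smallest p (log2 fold change -0.41, SE 0.24, unadjusted p = 0.118, edgeR's quasi-likelihood test). Gcsh, the H protein that works with glycine decarboxylase, had a log2 fold change of -0.32 (unadjusted p = 0.314), and Amt, the aminomethyltransferase of the same system, one of 0.06 (unadjusted p = 0.729). Both were named after their values were seen, as subunits of the system of Gldc. Gcsh ranged from 148 to 225 CPM in KO libraries and from 130 to 289 CPM in WT libraries.

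Other carriers of serine and glycine had 6 higher and 7 lower of 13 tested, with a median of -0.01. The smallest p went to Slc38a1, a neutral amino acid carrier, on the higher side (log2 fold change 0.13, unadjusted p = 0.431) and to Slc7a5, a carrier of large neutral amino acids, on the lower side (-0.19, unadjusted p = 0.392). Slc1a4, the serine carrier ASCT1, and Slc38a3, a glutamine carrier, were named after their values were seen because they were low in the same libraries as Slc7a10. Slc1a4 measured 132, 177 and 94.0 CPM in KO libraries 14, 16 and 18, against 145, 138 and 71.1 CPM in WT libraries 13, 15 and 17. Slc38a3 measured 398, 423 and 242 CPM in KO libraries 14, 16 and 18, against 478, 414 and 181 CPM in WT libraries 13, 15 and 17. In both genes KO library 18 and WT library 17 were lowest of their genotype, which is the reason they were named. Slc38a1 of the same list was instead highest of its genotype in KO library 18 (60.7 CPM). It was also highest in WT library 17, narrowly (52.5 CPM, beside 52.2 CPM in WT library 15).

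Genes that use or break down serine and glycine had 8 higher and 10 lower of 18 tested, with a median of -0.0065. Gatm, which takes glycine into creatine synthesis, measured 74.1, 64.5 and 63.0 CPM in KO libraries 14, 16 and 18, against 61.2, 59.5 and 52.2 CPM in WT libraries 13, 15 and 17. Each KO library was above each WT library (2.95% of all genes tested), with a log2 fold change of 0.22 (unadjusted p = 0.14, adjusted p = 1.00, edgeR's quasi-likelihood test). Cth, an enzyme of cysteine synthesis from serine-derived cystathionine, had the smallest p on the lower side (-0.29, unadjusted p = 0.408). Dao, the D-amino acid oxidase that breaks down D-serine, was not tested, with a mean of 0.0469 CPM in KO and 0.103 CPM in WT libraries.

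Subunits of the NMDA and glycine receptors, on which D-serine and glycine act, had 5 higher and 4 lower of 9 tested, with a median of 0.09. Glra3, a glycine receptor subunit, had the smallest p on the higher side (log2 fold change 0.50, SE 0.40, unadjusted p = 0.251) and Grin2b, an NMDA receptor subunit of neurons, on the lower side (-0.43, SE 0.35, unadjusted p = 0.252). Grin2b measured 85.8, 74.2 and 112 CPM in KO libraries 14, 16 and 18, against 62.1, 124 and 182 CPM in WT libraries 13, 15 and 17. Its log2 fold change was -0.03 without WT library 17, -0.75 without WT library 13 (unadjusted p = 0.0156, adjusted p = 0.999, edgeR's quasi-likelihood test) and -0.04 with the first title number as a covariate. Within each genotype it was highest in KO library 18 and WT library 17, the libraries with the most neuron marker RNA by median, and the part of neuronal RNA in it was not tested.

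The transcription factor ATF4 drives serine synthesis genes when amino acids run short, and 14 genes of its response were tested, 7 higher and 7 lower with a median of -0.04. Atf4 itself, named after its value was seen, had a log2 fold change of 0.14 (unadjusted p = 0.347, edgeR's quasi-likelihood test). Nupr1, a stress-induced nuclear protein, was the 1 gene of the 5 lists with an unadjusted p under 0.05, which is 1.37% of the 73 list genes tested, beside 1.77% of all genes. It measured 26.9, 31.3 and 28.2 CPM in KO libraries 14, 16 and 18, against 44.3, 30.9 and 40.2 CPM in WT libraries 13, 15 and 17. KO library 16 and WT library 15 overlapped narrowly, and the log2 fold change was -0.42 (SE 0.16, unadjusted p = 0.0333, adjusted p = 1.00). In 8 of 18 alternative analyses its unadjusted p was not under 0.05, among them 0.0962 when scaled on astrocyte markers and 0.118 with the share of ribosomal RNA as a covariate. Ddit4, an inhibitor of mTOR signalling, measured 79.3 ± 9.29 CPM in KO and 65.8 ± 7.86 CPM in WT libraries (SD, n = 3 each) without overlap, each KO library above each WT library as in 2.95% of all genes tested (log2 fold change 0.27, unadjusted p = 0.115).

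**Figure D5:**
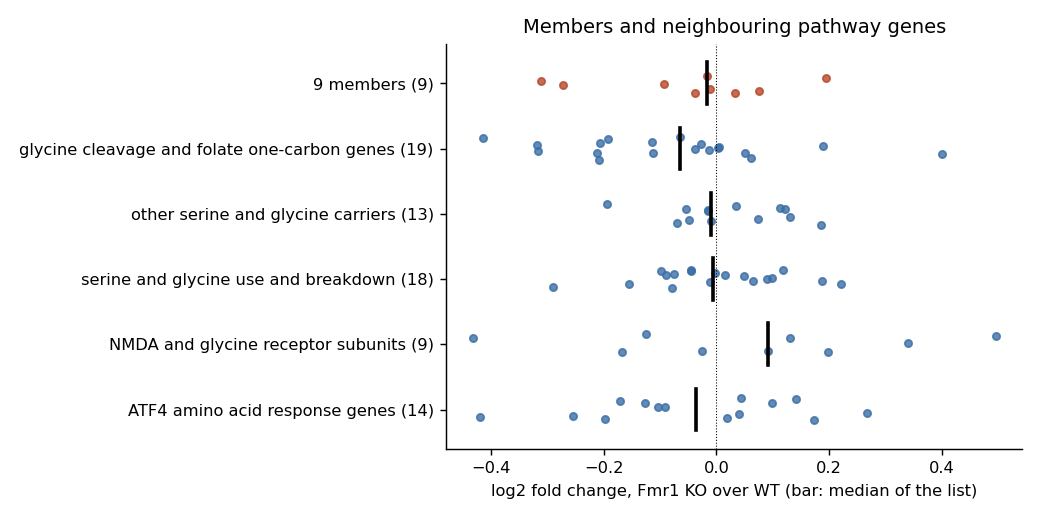
Log2 fold change of KO over WT for the 9 members (red) and for the genes of 5 neighbouring lists (blue, number tested in brackets), with a black bar at each list's median. The medians lie between -0.06 and 0.09, and single genes between -0.43 (Grin2b) and 0.50 (Glra3).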

How the data were processed

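Ribosome-bound RNA was measured in 12 deposited entries, which are 6 libraries with 2 entries each. STAR 2.5.3a, RSEM 1.3.0, edgeR and mm10 come from the submitters' processing notes; no strand setting or annotation release is given in the sources used here. The count table was deposited as unscaled RSEM expected counts per gene, per the file headers. The authors' deposited comparison table gives log2 fold changes, p-values and a scaled signal per entry, of which the fold changes of KO over WT and p-values were read.

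The 2 entries of a library were compared by chi-square over features with 20 or more counts in both together. Its median per feature was 0.467 to 0.494 within libraries and 2.93 to 18.8 between libraries of a genotype. Between libraries the first entry of each was compared with only totals allowed for, so differences in the share of ribosomal RNA were not removed. KO libraries 14 and 16 gave 2.93, and KO library 18 gave 13.1 and 18.8 with them, while pairs of WT libraries gave 3.60 to 5.97. Most features thus differed between the 2 entries of a library by no more than sampling noise. Chi-square per degree of freedom was 1.17 to 2.34 within libraries, so some features differed by more. The largest chi-square among the 9 members was 10.0, in library 16. The 2 entries were summed, rounded and counted as 1 sample. Genes were filtered with filterByExpr and scaled by TMM, and genotype was tested with edgeR's quasi-likelihood test (R 4.3.3, edgeR 4.0.16, limma 3.58.1), adjusted by Benjamini-Hochberg over 14990 genes; log2 CPM used a prior count of 2. DESeq2 1.42.0 served as an alternative. Named beside the 9 members were Fmr1, Aldh1l1, the genes nearest in pattern and, per list, the smallest p in each direction; 1 gene that this rule takes is not reported here. Members and lists were chosen with earlier results of these data known.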

Additional observations from a re-analysis of the deposited data

How the results depend on the processing

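Over 18 alternative analyses none of the 9 genes passed (smallest adjusted p 0.965), and 139 of 162 log2 fold changes kept their direction; Gldc, Shmt1 and Srr stayed negative in all 18. Over all genes, in place of 0 calls there were 8 with DESeq2, 9 with edgeR's exact test, 6 without the filter on low counts, 1 adjusting for the share of ribosomal RNA and 3 with the astrocyte marker median as a covariate, the last chosen after seeing the data. The number at an unadjusted p under 0.05 ran from 139, scaled on astrocyte markers, to 709, with the first title number as a covariate. Scaled on astrocyte markers Psat1 turned to 0.0063 and Psph to 0.016; from the first entry of each library Psat1 turned to 0.0103 and Shmt2 to -0.025. Adjusting for the share of ribosomal RNA, Psph turned to 0.080, Slc7a10 to -0.20 and Aldh1l1 to 0.0085; with the first title number Slc7a10 turned to -0.14, and with the astrocyte marker median Psat1 turned to 0.00999. Without KO libraries 14 and 16, where the lone KO library is assumed to vary like the WT ones, Phgdh turned to 0.044, Psph to 0.14, Slc7a10 to -0.38, Slc6a9 to -0.0043 and Aldh1l1 to 0.10.

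Leaving out each library in turn gave 0 to 2 calls over all genes, 2 without KO library 18 and 1 without WT library 15. The median log2 fold change of the members ran from -0.13 (without WT library 17) to 0.057 (without WT library 13). Log2 fold changes ran from -0.13 to 0.025 for Phgdh, from -0.14 to 0.11 for Psat1, from -0.084 to 0.065 for Psph, from -0.14 to 0.13 for Shmt2, from -0.18 to 0.30 for Slc7a10, from -0.10 to 0.42 for Slc6a9 and from -0.58 to 0.0049 for Cth. The cause of these turns was not tested. Fmr1 had an adjusted p of 0.2998 in edgeR's quasi-likelihood test and passed with DESeq2 (adjusted p = 3.18e-16). No paired analysis was run because the labels give nothing that ties each KO library to 1 WT library. Depth limits Shmt1 most, with 14 counts in KO library 16.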
